A study of Mus musculus with 8 samples.

Results

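The insulin-like growth factor (IGF) system was followed through 10 genes taken by their symbols, of 20278 genes in the files. They are the ligand Igf1, the receptors Igf1r and Insr, the binding proteins Igfbp2, Igfbp3, Igfbp4, Igfbp5, Igfbp6 and Igfbp7, and the mRNA binding protein Igf2bp1. RNA was sequenced from N33, a mouse embryonic stem cell (ESC) line from C57BL/6J mice by the study's methods (strain C57BL/6 in the labels), in 4 culture conditions with 2 replicates each. In −F the cells grew on gelatin in serum, in F on mitomycin C-treated mouse embryonic fibroblasts (feeders) in serum, and in F2i on feeders in serum with 2i. 2i is the pair of CHIR99021, which inhibits Gsk3β, and PD0325901, which inhibits Mek. In NB2i the cells grew in N2B27, a defined medium without serum, on poly-L-ornithine and laminin with CHIR99021 at 3 μM and PD0325901 at 1 μM; the concentrations in F2i are not given separately in the sources used here. LIF at 1000 U/ml was in all 4 conditions, and fetal bovine serum at 20% was in −F, F and F2i. All samples come from the same ESC line, so the replicates say nothing about other lines.

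IGF1 and IGF2 bind the tyrosine kinase receptor IGF1R, and insulin binds the related receptor INSR; both receptors signal through IRS adaptors, PI3K, AKT and mTOR. IGF binding proteins are secreted, hold IGFs in the medium or matrix, and release them when proteases cut the binding protein. ESCs are grown in media that supply these factors from outside, since serum carries IGFs and insulin and the supplements of N2B27 contain insulin.

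The samples held between 20129641 and 20664488 expected counts, so differences in depth were small. All 8 ESC markers, among them Pou5f1, Sox2 and Nanog, had at least 1 FPKM (read count corrected for transcript length and depth) in every sample. Feeder fibroblasts can stay in the RNA of F and F2i although the sample notes describe their removal by differing adherence. The summed FPKM of 8 defining fibroblast markers (Col1a1, Col1a2, Col3a1, Dcn, Lum, Postn, Thy1, Pdgfrb) was 8.40 and 8.04 in −F, 182 and 190 in F, 518 and 507 in F2i, and 2.07 and 1.67 in NB2i. Dcn, Lum and Postn were at 0 in both NB2i samples. With a wider list of 20 markers the sums were 232 and 221 in −F, 703 and 729 in F, 1638 and 1622 in F2i, and 877 and 855 in NB2i. In NB2i nearly all of that sum was Sparc (456 and 457), Fn1 (358 and 334) and Vim (58.4 and 60.2). In bulk RNA, fewer cells of a type and less RNA per cell cannot be told apart.

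In this set a gene was called when its adjusted p was under 0.05 and its change at least 2-fold, in the quasi-likelihood test of edgeR, with Benjamini-Hochberg correction across 15287 genes. All 10 members passed the filter of 10 counts in 2 samples. Igf1 passed it only through F and F2i, and Igfbp6 through −F, F and F2i, so these genes entered through the conditions in which they were high.

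The promoters of Igfbp2, Igfbp4, Igfbp5 and Igfbp7 are shown because these binding proteins carry the highest level or the largest changes among the genes with ample counts. Sequences are from RefSeq (GRCm38.p6, the assembly of mm10), 250 bases before the first listed start on the gene's strand, 5′ to 3′. In the promoter table used, 8 of the 10 members were matched, all but Insr and Igf2bp1. Capitals mark TATAAA or GGGCGG, the core letters of a TATA box and of an SP1 GC box, searched on both strands without overlap between them.

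Igfbp2 (chr1:72824230-72824479, plus strand): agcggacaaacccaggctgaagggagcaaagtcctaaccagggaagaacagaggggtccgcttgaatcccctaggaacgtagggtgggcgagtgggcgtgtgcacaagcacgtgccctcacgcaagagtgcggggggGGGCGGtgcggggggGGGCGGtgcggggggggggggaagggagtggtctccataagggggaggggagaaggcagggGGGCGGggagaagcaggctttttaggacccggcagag

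Igfbp4 (chr11:99040994-99041243, plus strand): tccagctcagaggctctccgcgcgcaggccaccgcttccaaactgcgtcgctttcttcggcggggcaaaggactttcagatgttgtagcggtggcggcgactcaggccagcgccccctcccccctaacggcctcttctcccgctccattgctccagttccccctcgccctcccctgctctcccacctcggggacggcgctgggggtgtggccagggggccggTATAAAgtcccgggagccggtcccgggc

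Igfbp5 (chr1:72874866-72875115, minus strand): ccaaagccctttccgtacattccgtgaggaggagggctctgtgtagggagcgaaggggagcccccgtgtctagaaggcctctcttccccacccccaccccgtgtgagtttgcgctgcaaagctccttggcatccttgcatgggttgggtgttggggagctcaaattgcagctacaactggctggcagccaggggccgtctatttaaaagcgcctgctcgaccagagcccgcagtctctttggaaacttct

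Igfbp7 (chr5:77408046-77408295, minus strand): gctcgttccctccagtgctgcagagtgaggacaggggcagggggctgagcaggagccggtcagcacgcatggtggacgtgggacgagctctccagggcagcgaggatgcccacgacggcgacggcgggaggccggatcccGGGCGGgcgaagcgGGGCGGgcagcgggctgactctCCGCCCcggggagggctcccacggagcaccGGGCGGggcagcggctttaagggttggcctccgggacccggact

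TATAAA occurs in 12.37% and GGGCGG in 32.74% of 32851 mouse promoters of this length, whose median GC content is 52.4% with 6 CpG. The Igfbp7 window has 74.0% GC, 26 CpG and 4 matches to GGGCGG, and the Igfbp2 window 67.2% GC, 14 CpG and 3 matches. The Igfbp4 window has 69.2% GC and 22 CpG, and its TATAAA begins at position −28 from the start. The Igfbp5 window has neither motif, with 58.8% GC and 10 CpG. These matches are letters only and say nothing of binding.

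**Figure D1:**
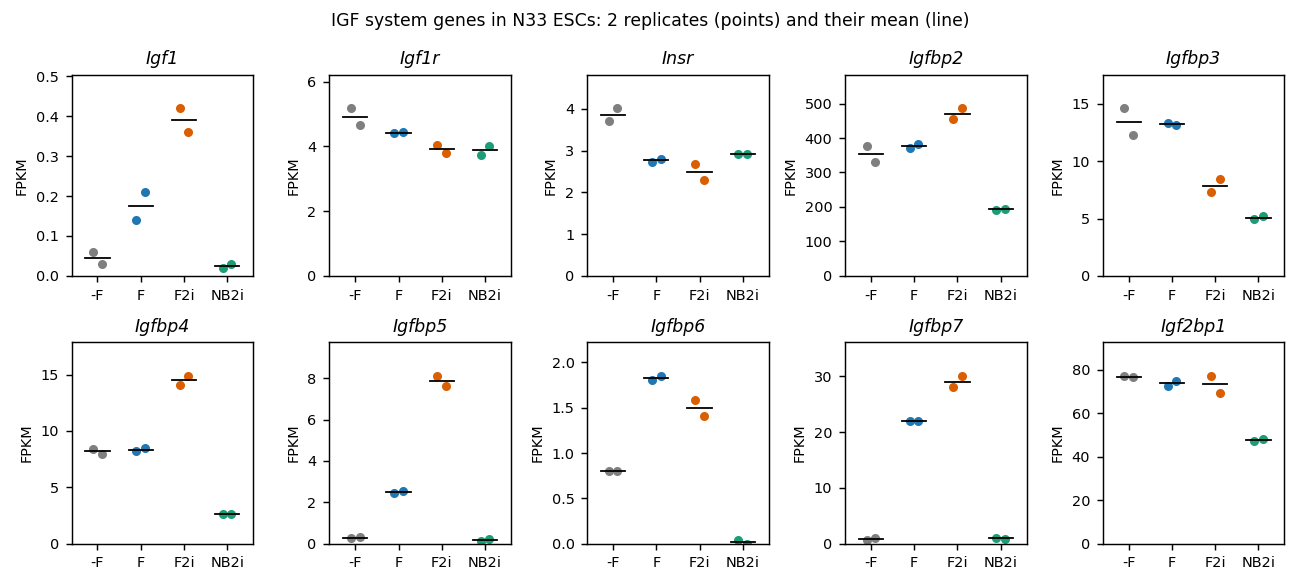
FPKM of the 10 IGF system genes by culture condition, each on its own linear axis from 0; points are the 2 replicates and lines their mean. Igf1, Igfbp2, Igfbp4, Igfbp5 and Igfbp7 had their highest mean in F2i, and Igf1r and Insr in −F.

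Igf1 was the only ligand among the members and stayed under 0.5 FPKM in every sample. Igf1 (chromosome 10, 87858265 to 87937042, plus strand, mm10) had 0.06 and 0.03 FPKM in −F, 0.14 and 0.21 in F, 0.42 and 0.36 in F2i, and 0.02 and 0.03 in NB2i. These values rest on 13 counts in −F, 50 in F, 115 in F2i and 7 in NB2i, each over 2 samples. −F and NB2i overlapped, and the other conditions stood apart in the order F2i, F and −F. Igf1 was higher in F than in −F (log2 fold change 1.95 ± 0.42 SE, adjusted p = 0.00079) and higher again in F2i than in F (1.25 ± 0.27, adjusted p = 0.00045). With a sample left out the difference between F and −F ran from 1.49 to 2.63. Without F replicate 1 the rise in F2i was 0.99 (adjusted p = 0.014), under the 2-fold threshold. In NB2i it was lower than in F2i by a log2 fold change of −4.01 ± 0.40 (adjusted p = 1.9e-08), and its difference from −F did not pass (−0.82, 95% interval −2.17 to 0.54, adjusted p = 0.27). Igf1 is a fibroblast product in many tissues. The order of its means (F2i, F, −F, NB2i) was that of the 8 summed defining fibroblast markers. The 20-marker sum ran F2i, NB2i, F and −F, with its NB2i value mostly Sparc and Fn1. The part of feeder RNA in Igf1 was not tested.

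The receptors moved little. Igf1r (chromosome 7, 67952827 to 68233668, plus strand), which binds IGF1 and IGF2, had 5.18 and 4.65 FPKM in −F, 4.42 and 4.43 in F, 4.05 and 3.80 in F2i, and 3.74 and 4.02 in NB2i. F2i and NB2i overlapped. Its largest difference was NB2i against −F, −0.27 ± 0.06 (adjusted p = 0.00044), a 1.21-fold lower level. Insr (chromosome 8, 3122061 to 3279617, minus strand), the receptor of insulin, had 3.70 and 4.02 FPKM in −F, 2.73 and 2.81 in F, 2.69 and 2.30 in F2i, and 2.92 and 2.91 in NB2i. No neighbouring conditions overlapped for Insr, and −F was highest. It was lower in F than in −F by −0.45 ± 0.07 (adjusted p = 5e-05), and 0.23 ± 0.08 higher in NB2i than in F2i (adjusted p = 0.014), both under 2-fold. Neither receptor was called in any of the 5 comparisons.

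The ratio of Igf1r to Insr FPKM was 1.40 and 1.16 in −F, 1.62 and 1.58 in F, 1.51 and 1.65 in F2i, and 1.28 and 1.38 in NB2i. Igf1r was thus the higher receptor transcript in all 8 samples, with both F and both F2i samples above both samples of −F and of NB2i. Igf1r plus Insr came to between 6.10 and 8.88 FPKM per sample, highest in −F.

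Igfbp2 dominated the binding proteins in every condition. Igfbp2 (chromosome 1, 72824503 to 72852474, plus strand), a high-affinity binder of both IGFs, had 376 and 331 FPKM in −F, 370 and 383 in F, 454 and 487 in F2i, and 193 and 194 in NB2i. F and −F overlapped, F2i was highest and NB2i lowest. It made up 93.8% and 93.7% of the summed FPKM of Igfbp2 to Igfbp7 in −F, 88.6% and 88.9% in F, 88.5% and 88.6% in F2i, and 95.6% in both NB2i samples. The sum itself was from 353 to 549 FPKM with serum and 202 and 203 FPKM in NB2i.

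**Figure D2:**
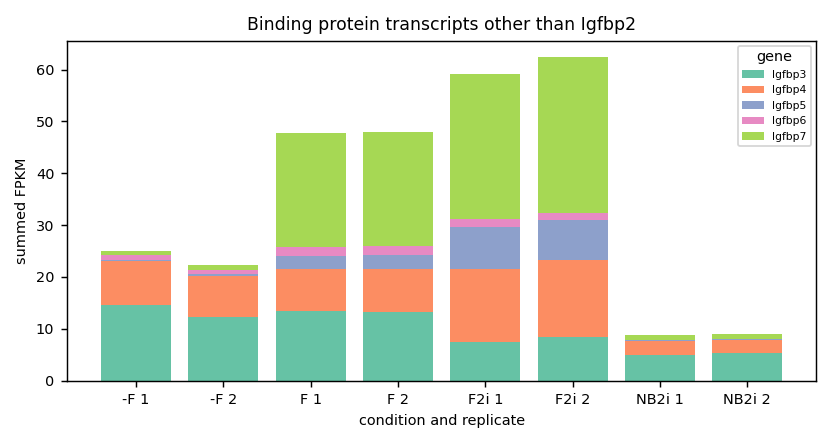
Summed FPKM of Igfbp3, Igfbp4, Igfbp5, Igfbp6 and Igfbp7 in each sample (stacked bars from 0, condition and replicate on the horizontal axis), leaving out Igfbp2. The sum was 24.9 and 22.3 in −F, 47.8 and 48.0 in F, 59.2 and 62.4 in F2i and 8.88 and 8.93 in NB2i, with Igfbp7 the largest part in F and F2i.

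Igfbp2 was called in NB2i against F2i alone among the 5 comparisons, with a log2 fold change of −1.25 ± 0.05 (adjusted p = 6.4e-15). Against F it was −0.94 ± 0.05 (adjusted p = 4.5e-13) and against −F −0.79 ± 0.05 (adjusted p = 7.9e-12), just under and under 2-fold. With 2i on feeders it was 1.24-fold higher (0.31 ± 0.05, adjusted p = 1.7e-05), and with feeders alone 1.11-fold higher (adjusted p = 0.026).

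Igfbp5, the neighbour of Igfbp2, had the same order of means (F2i, F, −F, NB2i). Its changes were larger than those of Igfbp2 in every comparison except NB2i against −F. Igfbp5 (chromosome 1, 72857932 to 72874884, minus strand) lies 5457 bases from Igfbp2, with the genes pointing towards each other. It had 0.26 and 0.32 FPKM in −F, 2.43 and 2.54 in F, 8.11 and 7.64 in F2i, and 0.12 and 0.23 in NB2i. No conditions overlapped, and the means spanned from 0.175 to 7.88 FPKM. It rose in F against −F by 3.12 ± 0.15 (8.70-fold, adjusted p = 3.2e-13) and again in F2i against F by 1.70 ± 0.08 (3.26-fold, adjusted p = 1.2e-13). In NB2i it was 44.3-fold lower than in F2i (−5.47 ± 0.13, adjusted p = 7e-19). Against −F the difference of NB2i was −0.64 ± 0.27 (adjusted p = 0.038), not called. With a sample left out this difference ran from −1.15 to −0.26, and the −1.15, without NB2i replicate 2, is past 2-fold.

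Igfbp7, which binds IGFs weakly and is a matrix protein of vessels and fibroblasts, showed the largest feeder difference. Igfbp7 (chromosome 5, 77349240 to 77408041, minus strand) had 0.76 and 0.98 FPKM in −F, 21.99 and 22.03 in F, 28.1 and 30.1 in F2i, and 1.1 and 0.84 in NB2i. NB2i and −F overlapped, and both feeder conditions stood far above them. It rose in F against −F by 4.68 ± 0.14 (25.7-fold, adjusted p = 6.8e-17) and was 29.7-fold lower in NB2i than in F2i (−4.89 ± 0.13, adjusted p = 2.8e-18). F2i against F gave 0.44 ± 0.07 (1.36-fold, adjusted p = 2.2e-05), under 2-fold. Of the 1209 exon bases annotated to Igfbp7, 85 overlap exons of Polr2b on the other strand, and use of strand in counting is not given in the sources used here. Polr2b itself stayed between 41.05 and 50.48 FPKM.

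Igfbp6, which prefers IGF2, was low throughout. Igfbp6 (chromosome 15, 102144362 to 102149511, plus strand) had 0.80 FPKM in both −F samples, 1.80 and 1.85 in F, 1.58 and 1.41 in F2i, and 0.04 and 0 in NB2i. No conditions overlapped. It was 2.32-fold higher in F than in −F (1.21 ± 0.27, adjusted p = 0.00092), and F2i against F did not pass (−0.25, 95% interval −0.74 to 0.24, adjusted p = 0.39). NB2i held 1 count in all against 42 in −F, which gives a ratio per total count of 42.3 with a 95% counting interval from 7.19 to 1711. The call against −F had adjusted p = 1.1e-06, and those against F and F2i had 1.8e-09 and 1.2e-08.

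Igfbp5, Igfbp6 and Igfbp7 rose with feeders together with the fibroblast markers. In F against −F, 17 of 20 fibroblast markers were called higher with a median log2 fold change of 4.30, and 8 of 8 defining ones with a median of 6.20. In F2i against F, 9 of 20 were called higher and 1 lower, with a median of 0.86, where 6.44% and 7% of all genes were. Of the 8 defining ones, 4 were called higher and 0 lower, with a median of 1.09. The log2 fold change of Igfbp5 in F2i against F was above that of 17 of 20 fibroblast markers and 7 of the 8 defining ones, with Lox, Col1a1 and Col5a2 higher. That of Igfbp7 was above 5 of 20 and 1 of 8, and that of Igfbp6 above 1 of 20 and 0 of 8. Primitive endoderm markers moved with feeders too. In F against −F, edgeR called 5 of 6 higher, DESeq2 3 and limma on log2(FPKM + 1) 1, where edgeR called 5.59% of all genes higher. Among the 5, Foxa2 rested on 3 counts in −F and 23 in F, and Sox17 on 19 and 38. The summed FPKM of the 6 was 5.35 and 4.34 in −F, 11.6 and 12.2 in F, 4.74 and 4.61 in F2i, and 2.76 and 2.97 in NB2i. The part of feeder or endoderm RNA in these differences was not tested.

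**Figure D3:**
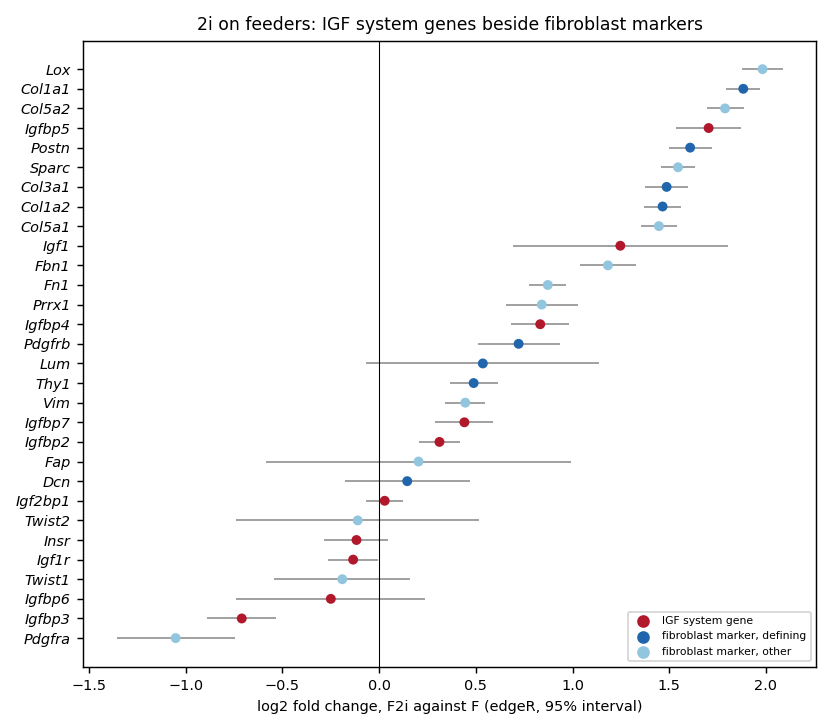
log2 fold changes with 95% intervals for F2i against F (edgeR) of the 10 IGF system genes and 20 fibroblast markers, ordered by size. Igfbp5 at 1.70 lies among the collagens and Postn, Igf1 at 1.25 lies below them next to Fbn1, Igfbp7 at 0.44 lies beside Vim and Thy1, and Igfbp3 at −0.71 is near the lower end.

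Igfbp3 and Igfbp4 were expressed in −F at the level of F. Igfbp3 (chromosome 11, 7206086 to 7213923, minus strand), the main carrier of IGFs in blood, had 14.6 and 12.3 FPKM in −F, 13.4 and 13.2 in F, 7.34 and 8.43 in F2i, and 4.95 and 5.22 in NB2i. −F and F overlapped. F against −F gave 0.0019 (95% interval −0.16 to 0.17, adjusted p = 0.99), a difference that lay under and over 0 with the processing. Igfbp3 was 1.64-fold lower in F2i than in F (−0.71 ± 0.09, adjusted p = 4e-07) and a further 1.54-fold lower in NB2i than in F2i (−0.63 ± 0.10, adjusted p = 1.2e-05), neither past 2-fold. NB2i against −F was called, with −1.34 ± 0.09 (adjusted p = 2e-11).

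Igfbp4 (chromosome 11, 99041244 to 99054392, plus strand), a binding protein that the protease PAPP-A cuts, went the other way with 2i on feeders. It had 8.44 and 7.92 FPKM in −F, 8.26 and 8.45 in F, 14.1 and 14.9 in F2i, and 2.67 and 2.64 in NB2i. F and −F overlapped, with F2i above and NB2i below every other sample. F2i against F gave 0.83 ± 0.07 (1.78-fold, adjusted p = 2.6e-09), under 2-fold, and NB2i against F2i gave −2.44 ± 0.09 (5.44-fold lower, adjusted p = 8e-16). Against −F it was 2.94-fold lower in NB2i (−1.56 ± 0.10, adjusted p = 4.5e-12). In NB2i against −F neither condition had feeders, and 5 of 8 defining fibroblast markers were called lower and 1 higher, at the low sums given above. Over the 20 markers 9 were called lower and 4 higher. The part of these cells' RNA in the Igfbp3 and Igfbp4 differences was not tested.

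Igf2bp1 (chromosome 11, 95957163 to 96005940, minus strand) encodes an RNA binding protein of embryonic cells named for its binding of Igf2 mRNA and is no IGF binder. It had 77.1 and 76.6 FPKM in −F, 72.6 and 75.1 in F, 77.3 and 69.5 in F2i, and 47.2 and 48.1 in NB2i. The serum conditions lay close, with F2i overlapping both F and −F, and NB2i was below every other sample. NB2i against F2i gave −0.62 ± 0.05 (1.53-fold lower, adjusted p = 1.9e-10), and NB2i against −F gave −0.62 ± 0.05 (adjusted p = 8.1e-11), both under 2-fold. Its relatives Igf2bp2 and Igf2bp3 differed in direction there: Igf2bp3 was called higher in NB2i than in −F (1.18 ± 0.05, adjusted p = 1.9e-15), and Igf2bp2 had 0.16 ± 0.04 (adjusted p = 0.0038).

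Counted over the 10 members, F against −F called 4 higher and 0 lower, where 5.59% of all genes tested were called higher and 1.65% lower. F2i against F called 2 higher and 0 lower, against 6.44% and 7% of all genes. NB2i against F2i called 0 higher and 6 lower, against 6.01% and 13.3%. NB2i against F also called 0 higher and 6 lower, against 10% and 17.6%. NB2i against −F called 0 higher and 3 lower, against 11.1% and 16.1%. DESeq2 gave the same 10 counts. In the directions without a call, an unadjusted p under 0.05 with no fold threshold was met by 2 members lower in F against −F (22.4% of all genes), 2 lower in F2i against F (29.6%), 1 higher in NB2i against F2i (34.8%), 0 higher in NB2i against F (37.1%) and 0 higher in NB2i against −F (37.9%). The comparisons share samples and are not independent.

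The median log2 fold change over the members was 0.10 in F against −F, 0.17 in F2i against F, −1.85 in NB2i against F2i, −1.47 in NB2i against F and −0.72 in NB2i against −F. The median of all genes tested lay between −0.0072 and 0.0178 in these comparisons. The lower calls in NB2i against −F were Igfbp3, Igfbp4 and Igfbp6, and NB2i against F added Igf1, Igfbp5 and Igfbp7 to them. In NB2i against F2i the calls were Igf1, Igfbp2, Igfbp4, Igfbp5, Igfbp6 and Igfbp7.

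**Figure D4:**
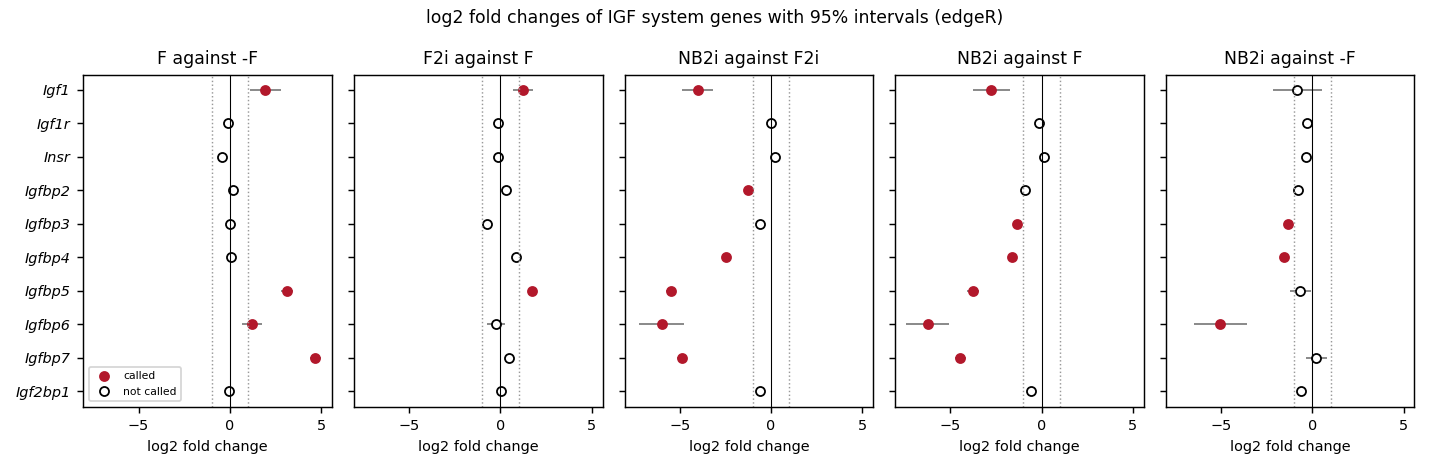
log2 fold changes with 95% intervals of the 10 genes in the 5 comparisons (edgeR); filled points were called, open points were not, and dotted lines mark a 2-fold change. Igfbp7 at 4.68 leads the feeder comparison, and every called gene in the 3 NB2i comparisons lies below 0.

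The rest of the insulin and IGF pathway was read from 46 further genes, of which 41 were tested. F against −F called 3 higher (7.32% of those tested, beside 5.59% of all genes) and 0 lower (DESeq2 also 0; 9 at an unadjusted p under 0.05 without the fold threshold, or 22.0%, beside 22.4% of all genes). F2i against F called 2 higher (4.88%, beside 6.44%) and 5 lower (12.2%, beside 7%). NB2i against F2i called 2 higher (4.88%, beside 6.01%) and 7 lower (17.1%, beside 13.3%). NB2i against F and NB2i against −F each called 4 higher (9.76%, beside 10% and 11.1%) and 12 lower (29.3%, beside 17.6% and 16.1%). None of the 11 AKT and mTOR effectors, among them Foxo1, Tsc2 and Mtor, was called in any of these by edgeR, by DESeq2 or by limma on log2(FPKM + 1). At an unadjusted p under 0.05 without the fold threshold, edgeR had 6 of them (54.5%) changed in either direction in F against −F, where 47.5% of all genes were. In each other comparison it had 7 (63.6%), where the share of all genes was from 59.0% to 75.2%.

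Igf2, the fetal ligand of IGF1R, fell in all 3 comparisons of NB2i. It had 55.0 and 50.7 FPKM in −F, 40.6 and 42.3 in F, 49.3 and 49.8 in F2i, and 1.07 and 1.09 in NB2i. No conditions overlapped, and NB2i was far below the rest. NB2i against −F gave −5.56 ± 0.07 (47.3-fold lower, adjusted p = 4e-23) and NB2i against F2i −5.49 ± 0.07 (adjusted p = 1.4e-23). Igf2 exceeded Igf1 in FPKM in all 8 samples.

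Pappa, the protease that cuts Igfbp4, had 0.01 and 0.02 FPKM in −F, 0.41 and 0.38 in F, 1.95 and 1.59 in F2i, and was at 0 in both NB2i samples. It was higher in F2i than in F by 2.20 ± 0.13 (adjusted p = 1.1e-11) and Igfbp4 was also higher there (0.83, above). Against a floor of 3 counts over the NB2i group it was at least 271-fold higher in F2i than in NB2i. Stc2, a secreted inhibitor of PAPP-A, moved the opposite way, from 4.70 and 4.45 FPKM in F2i to 15.5 and 14.8 in NB2i (1.73 ± 0.09, adjusted p = 2.6e-13). Stc1, also an inhibitor, fell from 0.22 and 0.21 FPKM in F2i to 0 in both NB2i samples. Htra1, another protease of binding proteins, fell from 30.7 and 31.6 FPKM in F2i to 8.71 and 8.27 in NB2i. Igfals, which holds IGFs and binding proteins in a stable complex, went from 2.14 and 2.05 FPKM in F2i to 7.22 and 7.54 in NB2i (1.82 ± 0.13, adjusted p = 5.2e-11). Igfbpl1, a relative of the binding proteins, was lower in F2i than in F (−1.13 ± 0.18, adjusted p = 1.4e-05).

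**Figure D5:**
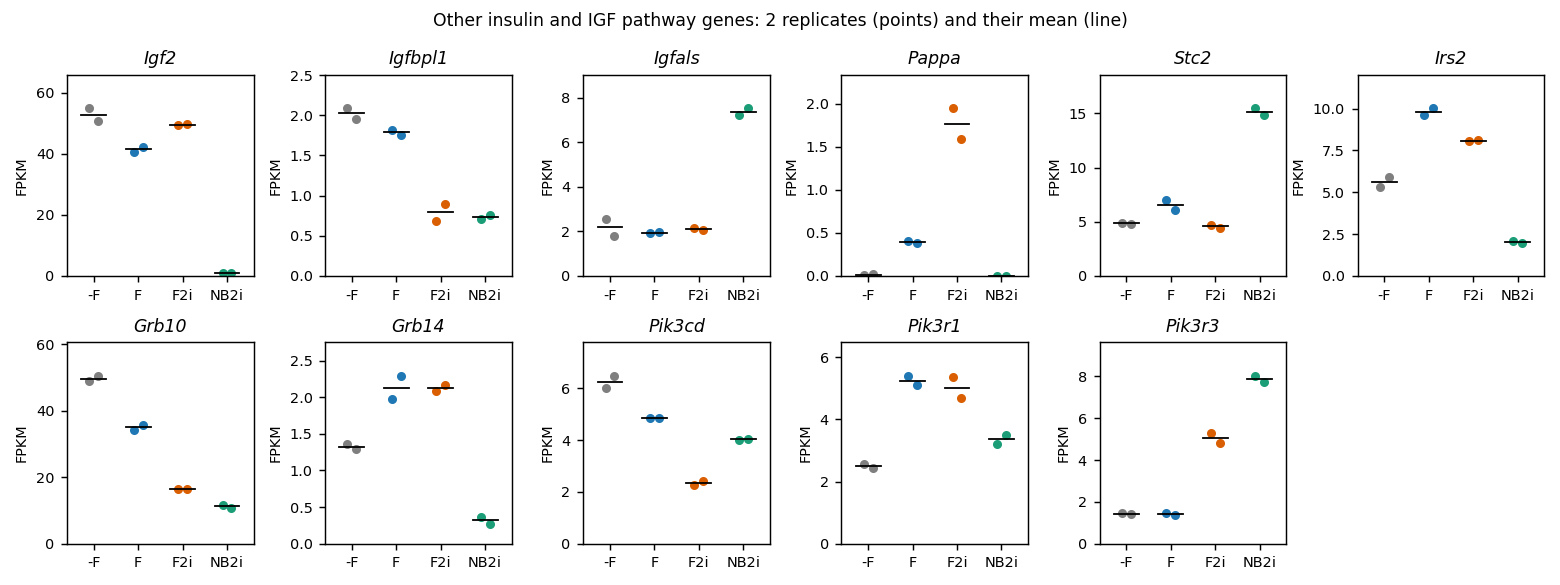
FPKM of 11 other insulin and IGF pathway genes by culture condition, each on its own linear axis from 0; points are the 2 replicates and lines their mean. Igf2 lies near 1 FPKM in NB2i and above 40 in the other conditions, while Stc2, Igfals and Pik3r3 are highest in NB2i.

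Among receptor adaptors, 5 of 8 were called lower in NB2i than in −F (62.5%, beside 16.1% of all genes). The 5 include Irs1 and Irs4, each under 1 FPKM in every sample. In NB2i against −F, limma on log2(FPKM + 1) called 2 of the 8 lower. Grb10 and Grb14 (1.36 and 1.29 FPKM in −F), which restrain the insulin receptor, were lower there. So was Irs2, which had 5.34 and 5.89 FPKM in −F. Grb10 had 48.8 and 50.4 FPKM in −F, 34.2 and 35.6 in F, 16.5 in both F2i samples, and 11.7 and 10.7 in NB2i. It was called lower in F2i than in F (−1.05 ± 0.05, adjusted p = 6.5e-14) and in NB2i than in −F (−2.08 ± 0.05, adjusted p = 2e-19). Grb14 was lower in NB2i than in F2i by −2.72 ± 0.24 (adjusted p = 2.8e-09), at 0.37 and 0.27 FPKM. Irs2, a docking protein of both receptors, had 9.59 and 10.03 FPKM in F and 2.1 and 1.97 in NB2i (−2.22 ± 0.08, adjusted p = 5e-16).

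Subunits of PI3K split. Pik3r1, the main regulatory subunit, was higher in F than in −F (1.10 ± 0.08, adjusted p = 2.9e-10), at 5.40 and 5.10 against 2.55 and 2.43 FPKM. Pik3r3, another regulatory subunit, had 1.45 and 1.36 FPKM in F, 5.29 and 4.83 in F2i, and 8.02 and 7.75 in NB2i. It was called higher in F2i against F (1.88 ± 0.09, adjusted p = 1e-13) and in NB2i against −F (2.52 ± 0.08, adjusted p = 4.8e-17). Pik3cd, a catalytic subunit, was lower in F2i than in F (−1.02 ± 0.08, adjusted p = 9.9e-10), close to the 2-fold threshold.

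The members differed in which genes shared their profile, as Pearson's r of log2(FPKM + 1) over the 8 samples searched in 11986 genes averaging 1 FPKM or more. These values describe 4 conditions in duplicate, and many genes have a high r in such a design. For Igfbp5 the 5 highest were Tmem92 (0.9987), Nfix (0.9986), Wisp1 (0.9982), Gm8300 (0.9982) and Zscan4a (0.9976). The study's text names Tmem92 and Zscan4 among genes of the 2-cell-like state of ESCs, and does not name Nfix, Wisp1 or Gm8300. Whether Igfbp5 belongs to that state was not tested. Reads of Zscan4a can be shared with near-identical copies. For Igfbp7 they were Brd2 (0.9982), Inhba (0.9981), Gm13040, Gm13057 and Amotl2 (0.9974 each). Gm13040 and Gm13057 had identical FPKM in all 8 samples, so they are not separate matches. Neither list of 5 held a fibroblast marker from the 20 above. So short a list does not show how closely those markers followed, and the source of this RNA was not tested. Igf1 was most like Dnajb6 (0.9935), and Igfbp6 most like Cyr61 (0.9969) and Irs2 (0.9956).

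Igfbp2 and Igfbp4 were close to each other (r = 0.991), and both had Actb and Tpm4 among their 5 nearest genes. Igfbp3 was nearest to Ccdc85b (0.9961), and the ESC gene Tdgf1 was also among its 5 (0.9942). Igf2bp1 was nearest to Celf2 (0.9975), Igf1r to Pomp (0.9839) and Insr to Pbx4 (0.9791), the last with the lowest best match of the 10. Igfbp2 and its neighbour Igfbp5 had r = 0.778.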

How the data were processed

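The authors sequenced poly-A selected RNA (BGISEQ-500, single-end, 50 bases), aligned it to mm10 using Bowtie2 and counted genes by RSEM. For each sample the authors deposited an expected count per gene, which is an estimate and need not be whole, and an FPKM, that count scaled by transcript length and by depth. The files list genes from 0.01 FPKM up, and a gene missing from a sample's list was taken as 0. The study describes biological duplicates; where replicates share a source, p-values measure only the spread between samples.

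After rounding, a quasi-likelihood model of edgeR 4.0.16 (glmQLFit, then glmQLFTest; R 4.3.3) with TMM scaling was fitted to all 8 samples by condition, on the 15287 genes reaching 10 counts in 2 or more samples. Benjamini-Hochberg adjustment ran across these genes in each comparison. Standard errors come from the fold change and the F value. The adjusted p-values rest on the model, since an exact permutation test of 2 against 2 cannot go below 0.3333. The scripts were tested on simulated data. Counts of replicates differed by more than sampling noise in every group. The common coefficient of variation that edgeR fitted beyond that noise was 3.25%, with 4 residual degrees of freedom. Very small p-values rest on this narrow spread.

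The members and gene lists were chosen with earlier results of these data known. All 10 members are named in every comparison. Other pathway genes are named where called and averaging 1 FPKM or more in the higher condition, at most 3 each way by size. Igf2bp2, Igf2bp3, Stc1, Htra1, Irs1 and Irs4 were added after their values were seen. For likeness the 5 genes of highest r are considered. Positions are from GENCODE on mm10, counted from 1. Alternatives were DESeq2 1.42.0, its size factors, 2 other filters, only the groups compared, a replicate block, each sample left out, log2(FPKM + 1) and log2(FPKM + 0.1) in limma 3.58.1, and no fold threshold.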

Additional observations from a re-analysis of the deposited data

How the results depend on the processing

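Of 830 log2 fold changes of the 10 genes under the alternatives, 815 had the same sign as reported. Of these, 794 were also called or not called as reported. The setting without a fold threshold reuses the reported fold changes, so its 50 values could not change sign. The counts of called genes moved in a few settings. With at least 10 counts in every sample, which leaves 8 of the genes, F against −F called 2 higher and F2i against F called 1. Limma on log2(FPKM + 1), which tests 9 of them, gave 2 and 1, with 5, 5 and 2 lower in NB2i against F2i, F and −F, and limma on log2(FPKM + 0.1) gave 1 in F2i against F. Without the fold threshold 5 genes were higher and 1 lower in F against −F (21.7% and 18.5% of all genes), 5 higher and 1 lower in F2i against F (27.3% and 27.4%), 1 higher and 8 lower in NB2i against F2i (33.3% and 30.8%), 0 and 9 in NB2i against F (36.3% and 37.1%), and 0 and 8 in NB2i against −F (36.9% and 35.4%). When single samples were dropped, F2i against F called 1 to 2 higher and NB2i against −F 3 to 4 lower. The changes of sign were at differences near 0. Igfbp3 in F against −F was −0.0124 with DESeq2's size factors, −0.0122 with DESeq2, −0.0034 without a filter, −0.001 with only the compared groups, −0.0147 and −0.0154 with limma (pseudocounts 1 and 0.1), and −0.118 to 0.133 with a sample left out. Igf2bp1 in F2i against F was −0.0107 and −0.0108 with limma and −0.048 to 0.103 with a sample left out, and Igf1r in NB2i against F2i was −0.0579 to 0.0359. The cause of these changes was not tested.

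On log2(FPKM + 1) Igfbp6 lost the 2-fold call in F against −F (0.65) and in NB2i against −F (−0.82), since the pseudocount understates changes of low genes. Its fitted change in NB2i against F2i ran from −8.33 to −5.14 without either NB2i sample, as only 1 count stands in NB2i. Replicate numbers did not pair the samples: the correlation of deviations from group means was −0.0444 to 0.0391 over 6 pairs of conditions. A fit with the replicate block called 4 genes higher in F against −F, 2 in F2i against F, and 6, 6 and 3 lower in NB2i against F2i, F and −F, and changed no call. At these depths the low counts of Igf1 and Igfbp6 limit what can be said of them in NB2i.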
